A study of Homo sapiens with 6 samples.

Results

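Transporters that bring sugars, monocarboxylates and amino acids into the cell were examined across SUM159 oncospheres with and without an SCGB3A1 vector. The genes were taken by symbol, as every member of the solute carrier families SLC1, SLC2, SLC3, SLC6, SLC7, SLC16, SLC36, SLC38 and SLC43 to which the array's annotation gave a probe set of its own. This gave 75 of 19775 named genes, measured by 180 of 54613 probe sets. Where a gene had several probe sets, the one with the highest mean over the 6 arrays stood for it. The choice of probe set used no difference between the groups, but the families were chosen with earlier results of these data known.

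SUM159 is an established line of human breast cancer cells with a mesenchymal phenotype. Cells of both groups had been infected with a pLVX-puro lentivirus, kept under puromycin (2 µg/ml) during 7 days, seeded at 12500 cells/ml and kept for 5 days in low-attachment culture, in which they form floating spheres. The control virus was empty and the other carried the human gene SCGB3A1, which encodes a small secreted secretoglobin, and the comparison asked how the cells' expression responds to it. Each group had 3 arrays, hybridised from 100 ng of total RNA. The labels call the replicates biological without saying whether each came from its own infection, so each p-value reflects only how far these samples scatter, and the number of arrays (3 per group) limits the precision. In bulk RNA, fewer cells expressing a gene and less of its RNA per cell cannot be told apart.

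Several whole-array facts bear on the transporters. The SCGB3A1 probe set read 6.91 ± 0.13 on the log2 scale with the empty vector and 6.74 ± 0.16 with the SCGB3A1 vector (SD over 3 arrays each), with overlapping arrays and an adjusted p of 0.83 by limma. The probe set was dim. Whether the vector's insert holds the stretch that it reads is not stated, so the level may not bear on the labels, and the study's methods describe a separate check of the vectors' expression by qPCR. The mesenchymal markers VIM, FN1, SPARC, ZEB1 and CDH2 had means of 10.1 to 14.4. Of 7 luminal epithelial markers, 4 (EPCAM, CDH1, PGR and FOXA1) lay below 6.91, the median over all probe sets. The rest, ERBB2 (8.66), GATA3 (8.11) and ESR1 (7.07), lay above that median. Values below that median are called dim here, a cutoff not set to tell expression from background. Of 4 blood markers measured, 3 were not dim (PTPRC 7.75, HBB 7.29 and CD3E 7.09). Of 5 endothelial markers 4 were dim, and PECAM1 read 8.27. A reading that is not dim therefore need not mean that the gene is expressed. ZEB1 was lower by 0.25 in the arrays labelled SCGB3A1 (adjusted p 0.72). Control replicate 2 stood apart, with correlations to the other arrays of 0.989 to 0.993, and was the lowest or highest of its group for 76.8% of all genes but for 65.3% of the transporters.

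Solute carriers move small molecules across membranes by facilitated diffusion, by exchange, or by coupling to the sodium or proton gradient. In tumour cells they set the supply of glucose, of lactate and pyruvate, and of amino acids such as glutamine, leucine and cystine. Members of SLC7 that form heteromeric transporters need a heavy subunit, SLC3A1 or SLC3A2, to reach the membrane. Transcription of many amino acid transporters answers to ATF4 when amino acids are short, and several are also targets of NRF2, the regulator of the antioxidant response.

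No transporter differed between the groups at an adjusted p under 0.05 (0 of 75 by limma), where 6 of all 19775 genes did, or 0.0303%. The lowest adjusted p of any transporter was 0.29. At an unadjusted p under 0.05, 4 transporters were higher in the arrays labelled SCGB3A1 (5.33%, against 3.93% of all genes) and 2 were lower (2.67%, against 2.89%). The higher count depended on the setting. It was 7 with the replicate number as a block (9.33%, against 3.55% of all genes) and 7 with each gene's probe sets averaged (9.33%, against 4.14%). Without probe sets whose names end in _x_at or _s_at, it was 2 of 61 (3.28%, against 3.65%). The arrays labelled SCGB3A1 lay above every control array for 8 transporters (10.7%, against 7.09% of all genes) and below every control array for 3 (4.0%, against 5.24%).

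Most differences were small. The log2 fold changes of the 75 genes, as SCGB3A1 minus control, ran from -0.38 to 0.38 with a median of 0.03, and the median over all genes was 0.01. They were above 0 for 47 transporters and below 0 for 28, so that 62.7% were above 0 against 54.3% of all genes. The median size without regard to sign was 0.07 for both the transporters and all genes. A difference of more than 0.2 was seen in 7 transporters (9.33%, against 5.68% of all genes), and 6 of these were not dim (12% of the transporters that were not dim, against 7.11% of such genes). For 73 of the 75 the 95% interval of the difference lay within ±0.5, which is a 1.41-fold change in either direction. SLC7A7 and SLC16A7 were the exceptions. Dim readings made up 25 of the 75 genes, and their median size of difference was 0.07, as it was for the other 50.

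**Figure D1:**
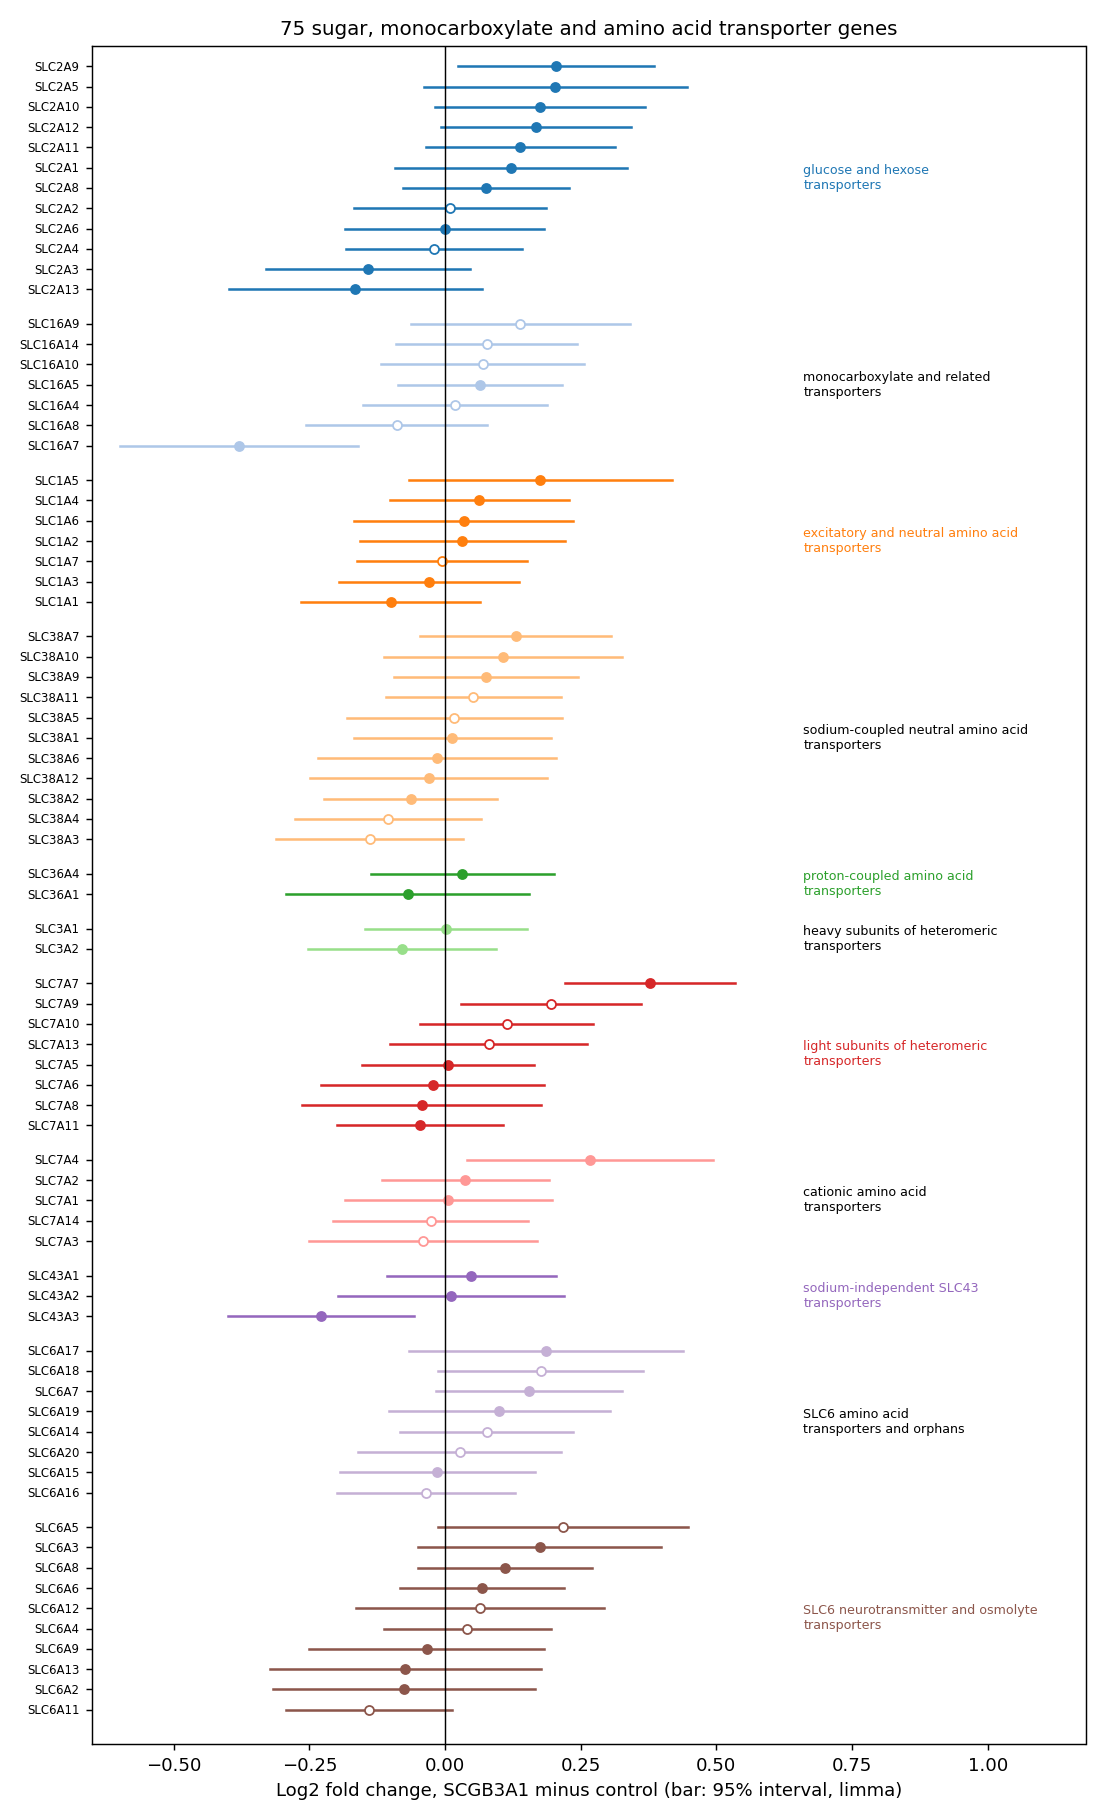
Log2 fold change of each of the 75 transporter genes (x axis, SCGB3A1 minus control; points, limma estimate; bars, 95% interval; 3 arrays per group), grouped and coloured by role, with open points for dim probe sets. The bars of most genes cross 0, and SLC7A7 (0.38) and SLC16A7 (-0.38) lie farthest from it.

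**Figure D2:**
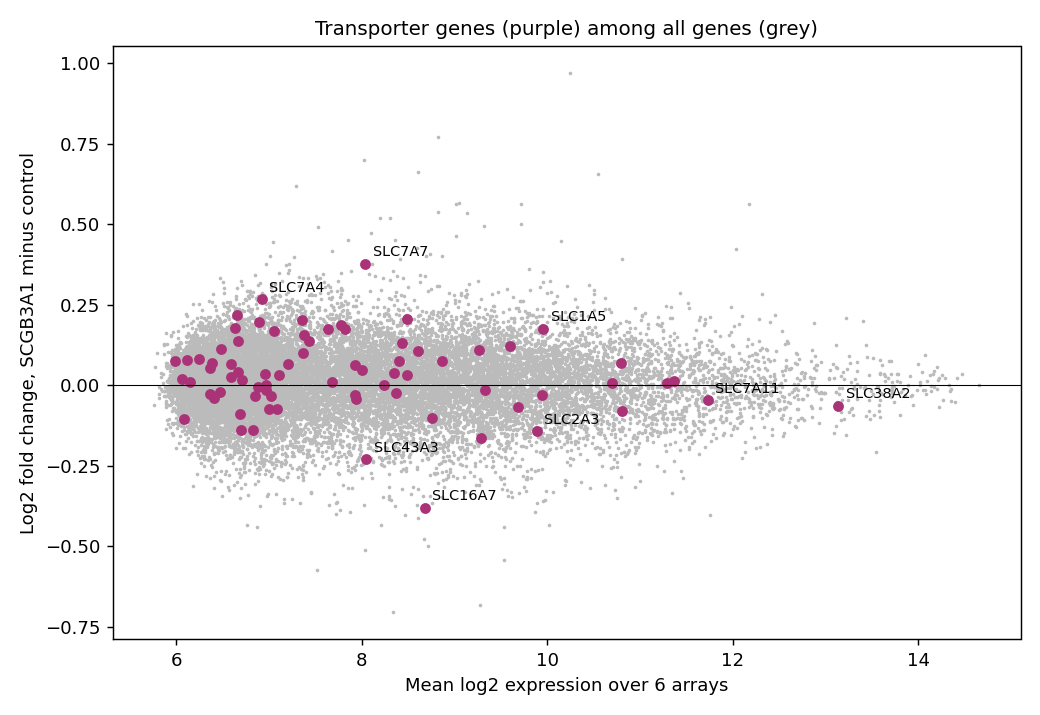
Log2 fold change (y axis, SCGB3A1 minus control) against mean log2 expression over the 6 arrays (x axis) for 19775 genes in grey and the 75 transporters in purple, 1 probe set per gene. The transporters lie between -0.38 and 0.38, inside the cloud of all genes, which runs from -0.70 to 0.97.

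The light subunits of the heteromeric amino acid transporters held the highest difference. SLC7A7 forms the exchanger that releases cationic amino acids such as arginine and lysine in return for neutral amino acids and sodium, together with SLC3A2. It read 7.89, 7.78 and 7.88 in control replicates 1 to 3 and 8.25, 8.17 and 8.26 in SCGB3A1 replicates 1 to 3. All 3 arrays labelled SCGB3A1 lay above all controls, with group means of 7.85 ± 0.06 and 8.23 ± 0.05 (SD, n = 3 each). The difference of 0.38 ± 0.07 (SE), or 1.30-fold, had a 95% interval of 0.22 to 0.53 and did not pass adjustment over all probe sets (limma, adjusted p 0.29). Leaving out each array in turn gave 0.34 to 0.41. SLC7A7 has 1 probe set on the array, so no second reading of the gene was at hand. The name of that probe set ends in _s_at, so SLC7A7 had no value with names ending in _x_at or _s_at left out. That filter went by name only, and whether this probe set cross-hybridises was not tested.

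Promoters of SLC7A7, of its partner SLC3A2 and of the glutamine transporter SLC1A5 are shown because they hold motifs of the regulators named above within 150 bases of a transcript start. The sequences are from RefSeq (GRCh38.p14), read in the direction of the gene and ending at the base before the start. Capitals mark the core of the antioxidant response element (ARE), TGACNNNGC, in the first and second, and the composite element (CARE) read by C/EBP and ATF4, TGATGNAAN, in the third. Each gene has 3 starts in the table, and 1 of the 3 holds the motif at this place. The SLC7A7 window lies at chr14:22819792-22819941 on the minus strand with the motif beginning 88 bases before the start, the SLC3A2 window at chr11:62881549-62881698 on the plus strand with the motif at 37 bases, and the SLC1A5 window at chr19:46784815-46784964 on the minus strand with the motif at 97 bases.
SLC7A7: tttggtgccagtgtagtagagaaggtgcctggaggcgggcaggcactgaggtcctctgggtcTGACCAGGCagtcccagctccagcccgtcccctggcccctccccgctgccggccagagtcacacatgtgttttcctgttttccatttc
SLC3A2: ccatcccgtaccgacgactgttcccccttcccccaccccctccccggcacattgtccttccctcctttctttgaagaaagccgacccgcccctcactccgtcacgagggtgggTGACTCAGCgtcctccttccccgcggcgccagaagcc
SLC1A5: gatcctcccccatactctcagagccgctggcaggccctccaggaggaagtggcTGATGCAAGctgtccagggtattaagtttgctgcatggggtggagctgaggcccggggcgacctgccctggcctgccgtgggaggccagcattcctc

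Promoters of 58 of the 75 genes were in the table, with 85 windows that ran from 250 bases before a start to 50 after it. Both strands were searched. The CARE motif was found in 7 of the 85 windows (8.24%) and in 3.61% of all 35116 windows, and its genes were SLC1A3, SLC1A4, SLC1A5, SLC2A5, SLC38A1, SLC3A2 and SLC7A1. The ARE core was found in 8 windows (9.41%, against 13.3% of all), those of SLC16A9, SLC1A3, SLC1A5, SLC3A2, SLC7A1, SLC7A5, SLC7A6 and SLC7A7. The core of the hypoxia response element, ACGTG, was in 24 (28.2%, against 21.4%). Windows of 1 gene can overlap, and a match of letters does not show binding. No window of SLC16A7, the gene with the most negative difference, held any of the 3 motifs.

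The other light subunits differed less. SLC7A9, which pairs with SLC3A1 to take up cystine and cationic amino acids in kidney and gut, was dim and read 6.76, 6.75 and 6.89 in control and 6.93, 6.97 and 7.08 in the arrays labelled SCGB3A1. The groups did not overlap, and the difference was 0.20 ± 0.08 (SE, adjusted p 0.78). SLC7A5, the carrier of leucine and other large neutral amino acids, read 11.34, 11.19 and 11.32 against 11.30, 11.30 and 11.27. Its arrays overlapped, with a difference of 0.01 and a 95% interval of -0.15 to 0.16.

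SLC7A11, the cystine and glutamate exchanger that feeds glutathione synthesis, read 11.82, 11.73 and 11.72 in control and 11.72, 11.69 and 11.73 in the arrays labelled SCGB3A1. Here too the arrays overlapped (difference -0.05, 95% interval -0.20 to 0.11, adjusted p 0.94), and its other probe sets gave -0.17 and -0.09. Of the remaining light subunits, SLC7A10 and SLC7A13 were dim, at 0.11 and 0.08, and SLC7A6 and SLC7A8 were at -0.02 and -0.04. The 8 light subunits had a median of 0.04, with 5 above 0.

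SLC3A2, the heavy subunit shared by SLC7A7, SLC7A5 and SLC7A11, read 10.76, 10.83 and 10.96 in control and 10.70, 10.75 and 10.86 in the arrays labelled SCGB3A1, in overlapping groups. The difference was -0.08 ± 0.08 (SE), with a 95% interval of -0.25 to 0.09 and an adjusted p of 0.91. SLC3A1, the partner of SLC7A9, was at 0.00.

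Among the cationic amino acid transporters, which work without a heavy subunit, SLC7A4 had the largest difference. Transport by this member has remained hard to show. Its control values were 6.87, 6.75 and 6.74, and its SCGB3A1 values 7.22, 7.14 and 6.80. SCGB3A1 replicates 1 and 2 were high and replicate 3 lay between the controls, so the groups overlapped. The difference was 0.27 ± 0.10 (SE), with a 95% interval of 0.04 to 0.49 and an adjusted p of 0.78, and the gene's other probe set was at 0.06. With 1 array left out it ran from 0.18 to 0.40.

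SLC7A1, the main importer of arginine and lysine in many cells, read 10.79, 10.55 and 10.74 against 10.74, 10.79 and 10.58. The groups overlapped almost wholly, with a difference of 0.01 and a 95% interval of -0.19 to 0.20. SLC7A2, SLC7A3 and SLC7A14 lay between -0.04 and 0.04, the last pair of them dim.

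The most negative difference was that of SLC16A7, a high-affinity carrier of lactate and pyruvate. Its control values were 8.91, 8.91 and 8.80, and its SCGB3A1 values 8.74, 8.32 and 8.43. All controls lay above all arrays labelled SCGB3A1, although SCGB3A1 replicate 1 was close to control replicate 3, and the spread was wider in the SCGB3A1 group (SD 0.22, against 0.06, n = 3 each). The difference was -0.38 ± 0.10 (SE), or 0.77-fold, with a 95% interval of -0.60 to -0.16 and an adjusted p of 0.68 by limma. It ran from -0.50 to -0.29 with 1 array left out. The gene has 5 probe sets, none of them dim, and all were below 0, at -0.38, -0.15, -0.18, -0.32 and -0.15. For 3 of the 5 the groups did not overlap. Of all genes, at 1 probe set each, 5.24% had every array labelled SCGB3A1 below every control. The 5 probe sets read the same RNA and are not replicates.

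The other members of this family gave little to compare, since 5 of the 7 analysed were dim. SLC16A1 and SLC16A3 had no probe set with a single symbol and were not among the 7. SLC16A5 read 7.11, 7.19 and 7.20 in control and 7.25, 7.21 and 7.23 in the arrays labelled SCGB3A1, which lay above all controls by a small margin (difference 0.06). SLC16A9, a carnitine transporter, was dim at 0.14. SLC16A10, which carries aromatic amino acids, was dim at 0.07, and the median of the 7 was 0.06.

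**Figure D3:**
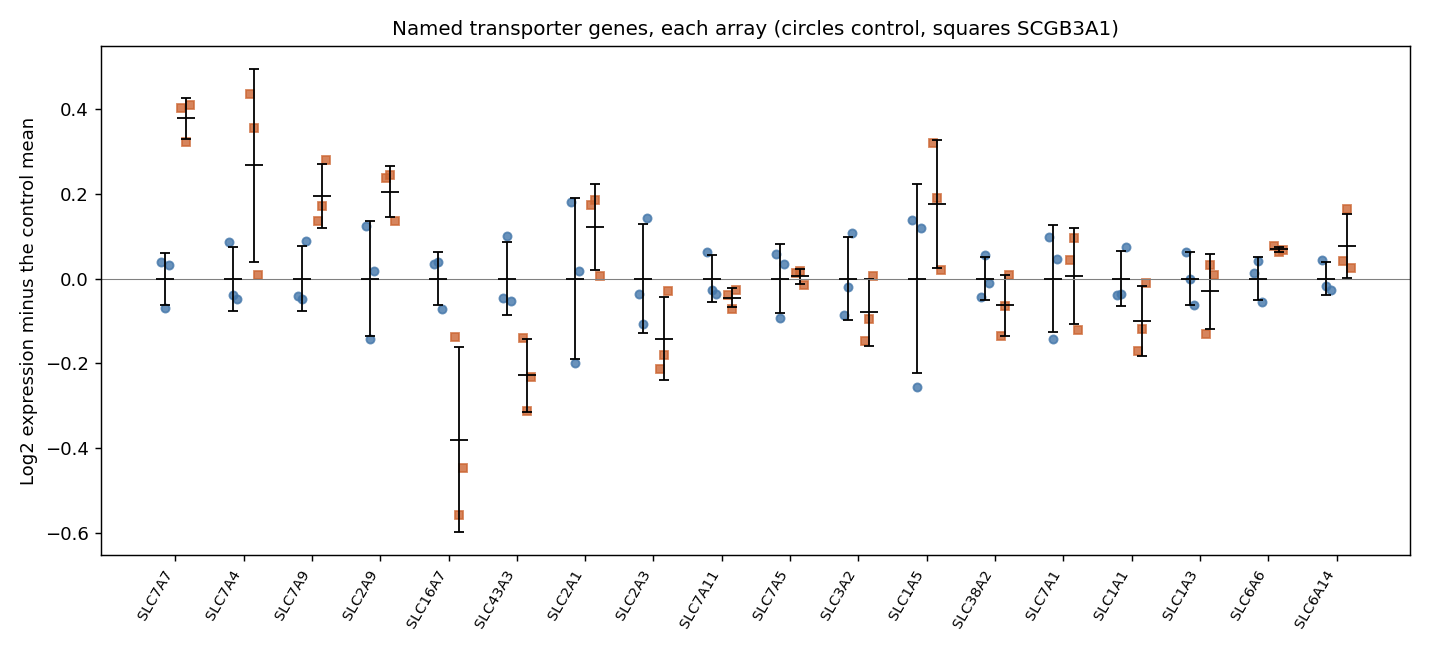
Log2 expression of 18 named transporter genes in each array, minus the mean of the controls (y axis), with control arrays as circles and arrays labelled SCGB3A1 as squares; horizontal marks and bars are group means and SD (n = 3). The groups are farthest apart for SLC7A7 (0.38) and SLC16A7 (-0.38), and overlap for SLC7A5 and SLC7A11.

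The hexose transporters had the highest family median, 0.10 over 12 genes, with 8 above 0 and 4 below. SLC2A9, which carries urate, read 8.51, 8.24 and 8.40 in control and 8.62, 8.63 and 8.52 in the arrays labelled SCGB3A1. The groups did not overlap, but control replicate 1 was close to SCGB3A1 replicate 3. The difference was 0.20 ± 0.08 (SE, adjusted p 0.78), and 0.13 without control replicate 2. The gene's other probe set was at 0.07.

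SLC2A12 read 6.97, 6.96 and 6.96 in control against 7.22, 6.98 and 7.19, in groups that did not overlap. Its difference of 0.17 had a 95% interval of -0.01 to 0.34, and its second probe set, a dim one, was at 0.21. SLC2A5, the fructose transporter, was at 0.20, and SLC2A10 and SLC2A11 at 0.18 and 0.14, each with an interval that held 0.

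The arrays of the groups overlapped for both of the widely studied glucose transporters. SLC2A1, which supplies glucose in most dividing cells, read 9.72, 9.34 and 9.55 in control and 9.71, 9.72 and 9.54 in the arrays labelled SCGB3A1. Control replicate 2 was the lowest, and the difference of 0.12 ± 0.10 (SE, 95% interval -0.09 to 0.33) came to 0.02 without it. SLC2A3, the high-affinity glucose transporter of neurons, read 9.92, 9.85 and 10.10 against 9.75, 9.78 and 9.93, with control replicate 3 the highest.

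For SLC2A3 the difference was -0.14 ± 0.09 (SE, adjusted p 0.85), and its other probe sets were at -0.06 and 0.04. This gene is nearly identical to SLC2A14 over much of its length, so its readings may hold signal of both. SLC2A13, the proton-coupled carrier of myo-inositol, was at -0.16, and 1 of its 4 other probe sets, a dim one, was at -0.30. SLC2A4, the insulin-responsive transporter, and SLC2A2 of liver and pancreas were dim, at -0.02 and 0.01.

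In the family of excitatory and neutral amino acid transporters, SLC1A5, a sodium-coupled exchanger that brings in glutamine, read 10.01, 9.61 and 9.99 in control and 10.19, 10.06 and 9.89 in the arrays labelled SCGB3A1. Control replicate 2 was the low value and the groups overlapped. The difference of 0.18 ± 0.11 (SE) had a 95% interval of -0.07 to 0.42 and came to 0.05 without control replicate 2. SLC1A4, which exchanges alanine, serine and cysteine, was at 0.06 on its brightest probe set, and its 4 other probe sets were all above 0, at 0.07 to 0.22.

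The glutamate and aspartate importers were near 0. SLC1A1 read 8.77, 8.78 and 8.89 against 8.64, 8.69 and 8.80, a difference of -0.10 with a 95% interval of -0.27 to 0.06, and its other probe set was at 0.12. SLC1A3 read 10.02, 9.95 and 9.89 against 9.82, 9.99 and 9.96, a difference of -0.03. Both overlapped between the groups.

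Sodium-coupled neutral amino acid transporters spread evenly around 0, with 6 of 11 above it and a median of 0.01. SLC38A2, which is made more when amino acids are withdrawn, read 13.13, 13.23 and 13.16 in control and 13.04, 13.11 and 13.18 in the arrays labelled SCGB3A1. Its groups overlapped, with a difference of -0.06 (95% interval -0.22 to 0.10), and its other probe sets were at -0.04 and -0.03. SLC38A1, another glutamine importer, was at 0.01. SLC38A9, the lysosomal transporter that reports arginine to mTORC1, was at 0.08, and SLC38A7, a lysosomal exporter of glutamine, at 0.13. The dim pair SLC38A3 and SLC38A4 were at -0.14 and -0.11, and the proton-coupled SLC36A1 and SLC36A4 at -0.07 and 0.03.

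SLC43A3, a carrier of purine nucleobases in a family otherwise known for large neutral amino acids, read 8.12, 8.26 and 8.11 in control and 8.02, 7.85 and 7.93 in the arrays labelled SCGB3A1. All controls lay above, and the difference was -0.23 ± 0.08 (SE), with a 95% interval of -0.40 to -0.06 and an adjusted p of 0.75. Its other probe set was at 0.03, so the readings of this gene were not alike. SLC43A1 and SLC43A2, which carry leucine and related amino acids, were at 0.05 and 0.01.

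The SLC6 family couples uptake to sodium and chloride. Its 8 amino acid transporters and orphans had a median of 0.09, with 6 above 0. SLC6A18, a neutral amino acid transporter of kidney, was dim, and SLC6A7 carries proline in brain. For both, the arrays labelled SCGB3A1 lay above all controls, with differences of 0.18 and 0.15 and intervals that held 0. For SLC6A18 the nearest arrays of the groups were 6.634 and 6.635, a gap far below the spread of either group.

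SLC6A14, which imports a broad range of neutral and cationic amino acids and is raised in several carcinomas, was dim here. It read 5.99, 5.93 and 5.92 against 5.99, 6.11 and 5.97, a difference of 0.08 in overlapping groups. SLC6A17 was at 0.19, and its second probe set at 0.24. SLC6A19 and SLC6A15, both carriers of neutral amino acids, were at 0.10 and -0.01.

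Among the 10 neurotransmitter and osmolyte transporters, SLC6A6, the taurine importer, read 10.78, 10.81 and 10.71 in control and 10.84, 10.83 and 10.83 in the arrays labelled SCGB3A1. These lay above all controls, but by 0.07 on average (95% interval -0.08 to 0.22), and the other probe sets were at 0.06, -0.04, 0.13 and -0.08. SLC6A8, the creatine importer, was at 0.11. SLC6A11, a GABA transporter, was dim and read 6.77, 6.80 and 6.74 against 6.57, 6.68 and 6.64, below all controls, with a difference of -0.14 whose interval held 0. SLC6A5, a glycine transporter, was dim at 0.22 with overlapping groups, and the dopamine transporter SLC6A3 was at 0.17.

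Other probe sets of the same genes gave a further reading. Of the 75 genes, 28 had 1 probe set and 47 had more, up to 8. The 105 other probe sets had the sign of the chosen one in 64 cases and the opposite sign in 41. Of the 105, none passed adjustment, 5 were higher at an unadjusted p under 0.05 (4.76%, against 2.5% of the 21316 other probe sets of all genes) and 3 were lower (2.86%, against 3.68%). Among the 43 that were not dim, 31 had the same sign as the chosen one and 12 the opposite, with 3 higher and 2 lower at that threshold. SLC16A7 was the gene whose probe sets lay farthest to 1 side of 0 in the plot of genes with 3 or more. Probe sets of 1 gene share the same RNA and are not replicates.

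**Figure D4:**
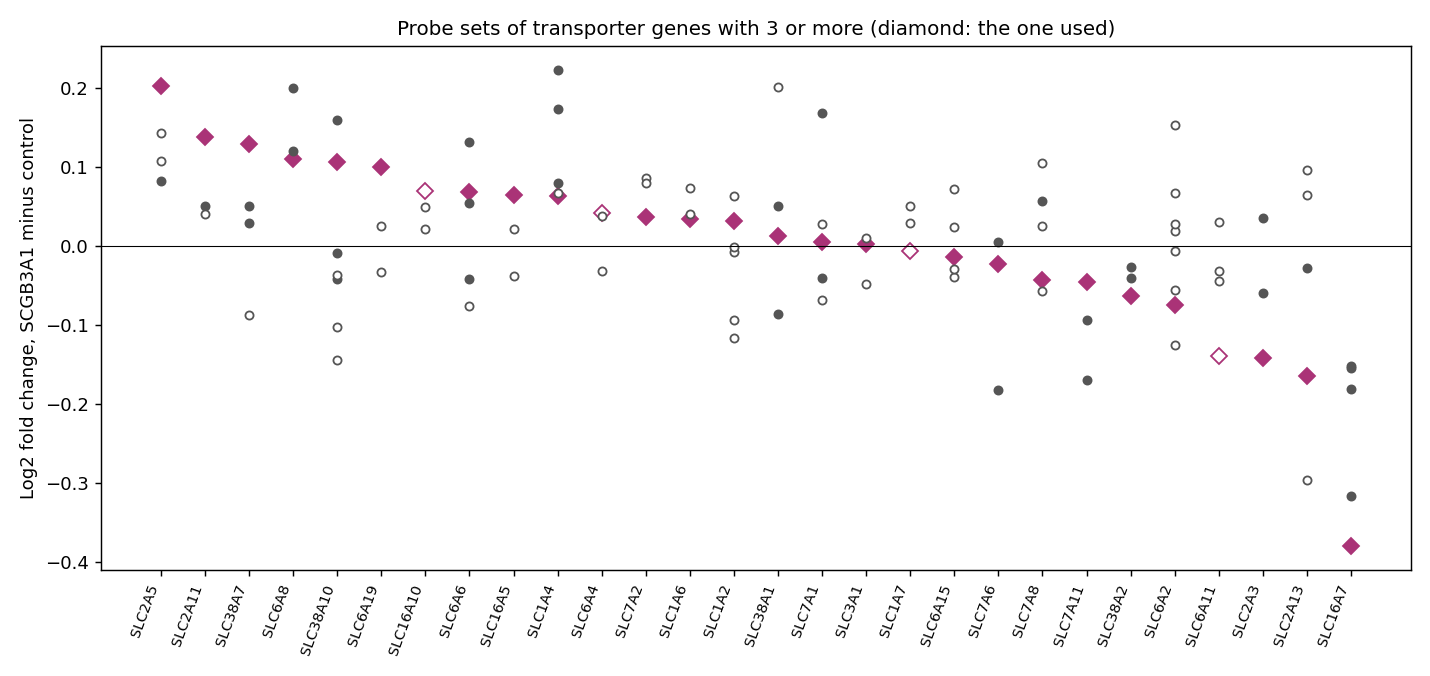
Log2 fold change (y axis, SCGB3A1 minus control) of every probe set of the 28 transporter genes with at least 3, as diamonds for the probe set used and circles for the others, open where dim. All 5 probe sets of SLC16A7 lie below 0, whereas those of many genes, such as SLC7A1, lie on both sides.

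Genes around the transporters were read from lists chosen by function, with earlier results of these data known. Of 29 amino acid response genes, which ATF4 and its partners induce when amino acids are short, 5 were higher at an unadjusted p under 0.05 (17.2%, against 3.93% of all genes) and none lower, with a median of 0.05 and 20 above 0. Of the 29, 28 were not dim, and 4.74% of all genes that were not dim were higher at that threshold. PSAT1 and PHGDH, enzymes of serine synthesis, were at 0.26 and 0.23, the stress regulators NUPR1 and DDIT3 at 0.24 and 0.16, and CARS1, which charges the cysteine tRNA, at 0.18.

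PSAT1 read 9.54, 9.66 and 9.53 in control against 9.82, 9.84 and 9.84. NUPR1 read 10.60, 10.54 and 10.51 against 10.80, 10.82 and 10.74. Neither overlapped between the groups. None of the 5 passed adjustment, the lowest adjusted p being 0.70. The absence of lower genes became 1 lower with control replicate 1 or SCGB3A1 replicate 3 left out, and with the replicate number as a block. In these 3 settings 2.89% to 4.20% of all genes were lower. The count of 5 higher came to 3 without control replicate 3, 3 without SCGB3A1 replicate 1 and 2 without SCGB3A1 replicate 2. It also came to 3 with the replicate number as a block, and across these settings 2.65% to 3.55% of all genes were higher. Transporters that belong to the same response, SLC7A11, SLC3A2, SLC38A2, SLC7A5 and SLC1A5, were at -0.05, -0.08, -0.06, 0.01 and 0.18.

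Of 36 genes for amino acid sensing by mTORC1, 3 were higher at an unadjusted p under 0.05 (8.33%, against the same 3.93%) and none lower, with a median of 0.04. None of the 36 was dim, and 4.74% of all genes that were not dim were higher at that threshold. RRAGD, a GTPase that recruits mTORC1 to the lysosome, was at 0.30, TBC1D7, a subunit of the tuberous sclerosis complex, at 0.23, and the leucine-responsive family member SESN1 at 0.21, with adjusted p from 0.74 to 0.77. The higher count was 1 without SCGB3A1 replicate 1, where 2.65% of all genes were higher. It was 1 of 23 without the probe sets ending in _x_at or _s_at (3.65% of all genes). The lower count was 2 without control replicate 1 (3.26% of all genes) and 1 without control replicate 3 (2.85%).

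In the main fit of all 6 arrays, no gene in the remaining lists differed at an unadjusted p under 0.05. These held 17 partners and regulators of the transporters (median 0.03), 17 genes of cystine and glutathione use (median 0.00) and 7 sodium cotransporters of the SLC5 family (median -0.01). The values with the smallest p were those of ARRDC4, an arrestin that takes glucose transporters from the membrane, at 0.14, the glutathione synthesis subunit GCLM at 0.18 and SLC5A10 at -0.18. Some alternatives with all 6 arrays changed these counts of 0. With a trend and robust prior for the variance, 1 partner was lower (3.05% of all genes) and 1 cystine and glutathione gene higher (3.85%). With array weights 1 cystine and glutathione gene was higher (4.88%), and with each gene's probe sets averaged 1 partner was higher (4.14%). Leaving out 1 array changed the counts too. In those fits 2.65% to 5.72% of all genes were higher and 1.88% to 4.20% lower. Among the partners, 2 were lower with control replicate 1 left out and 2 with SCGB3A1 replicate 3 left out, and without control replicate 2 there was 1 lower and 1 higher. Among the cystine and glutathione genes, 1 was higher without any 1 of the controls and without SCGB3A1 replicate 2, and 1 was lower without SCGB3A1 replicate 1. Among the cotransporters, 1 was higher without control replicate 1, and 1 was lower when either control replicate 3 or SCGB3A1 replicate 1 was left out. CD44, which binds and steadies SLC7A11, was at -0.16, and NEDD4L, a ubiquitin ligase, at -0.18.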

How the data were processed

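RNA was measured on Affymetrix Human Genome U133 Plus 2.0 arrays. Raw scanner files had been processed by the authors with robust multiarray averaging (RMA) in Chipster, which gave the deposited log2 values (5.66 to 14.7). Sorted, the arrays deviated from their mean by at most 0.026, so a change in total RNA cannot be seen. The probe set definition used is not given in the sources used here.

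Probe sets were named from GEO's platform annotation, of which 41091 had 1 symbol, 1801 several and 11721 none. All 75 transporter symbols matched RefSeq by gene identifier, and 0 changed. SLC16A1 and SLC16A3 had no probe set with a single symbol and were not analysed here. After 62 control probe sets were left out, 54613 were fitted in limma 3.58.1 (R 4.3.3; lmFit and eBayes, two-sided), with Benjamini-Hochberg adjustment over all of them. Intervals are at 95%. The fit was tested on simulated data.

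The members and lists were chosen with earlier results of these data known. Named were SCGB3A1, up to 12 transporters per direction with the smallest unadjusted p under 0.05, a list of well-known transporters whatever their values, and up to 3 genes of each other list. Every other gene given (PHGDH, CARS1, further markers and transporters) was named after its values were seen. Alternatives (15) included other normalizations and variance models, array weights, a replicate block, other gene summaries, and each array left out. They also included filters on dim probe sets and on names ending in _x_at or _s_at.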

Additional observations from a re-analysis of the deposited data

How the results depend on the processing

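The count of transporters past adjusted p 0.05 was 0 under all 15 alternatives, and the lowest adjusted p was 0.13, for SLC7A7 with each gene's probe sets averaged. The 4 transporters higher at an unadjusted p under 0.05 became 7 with the replicate block (9.33%, against 3.55% of all genes) and 7 with the mean of all probe sets (9.33%, against 4.14%). They became 2 without probe sets ending in _x_at or _s_at, which left 61 genes (3.28%, against 3.65%). The 2 lower became 1 without those probe sets (1.64%, against 3.19% of all genes) and 1 with that mean (1.33%, against 3.08%). With each array left out, the lower count ran from 1 without SCGB3A1 replicate 2 (1.33%, against 1.96% of all genes) to 3. It was 3 (4.0%) without control replicate 2 (2.71% of all genes), control replicate 3 (2.85%) or SCGB3A1 replicate 3 (4.20%). The median difference ran from 0.015 without control replicate 1 (0.013 over all genes) to 0.056 without SCGB3A1 replicate 2 (0.008 over all genes). The cause of these moves was not tested. SLC16A7 stayed under 0.05 in all 15 alternatives, and SLC7A7 in the 14 that gave it a value. SLC43A3 did not without SCGB3A1 replicate 2 or with the mean of all probe sets (-0.10). SLC7A4, SLC7A9 and SLC2A9 did not without 1 of several arrays each. Nor did SLC2A9 with that mean (0.14) or SLC7A4 without probe sets ending in _x_at or _s_at (0.06).

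The sign turned for SLC7A5 (-0.016) and SLC7A1 (-0.012) with array weights. It also turned for SLC7A1 (-0.040) without probe sets ending in _x_at or _s_at and for SLC1A1 (0.011) with the mean of all probe sets. With 1 array left out, SLC1A3 ran from -0.061 to 0.020, SLC7A5 from -0.041 to 0.035 and SLC7A1 from -0.066 to 0.069. In all, 264 values of single genes kept their sign and their side of the threshold and 11 turned. Same-numbered arrays deviated from their group means with correlations of 0.15, -0.14 and -0.09. For arrays of unlike number these ran from -0.24 to 0.25. With 3 arrays per group, such values cannot decide whether the numbers pair the samples. The alternatives for the counts in the other lists were added after seeing the data.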
